A study of Populus tremula x Populus alba with 12 samples.

Results

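Leaves of empty-vector poplars were compared with leaves of wild-type poplars, the unedited genotypes of a study of CRISPR glycosyltransferase knockouts. The 6 libraries were chosen by the genotype label alone, 3 empty-vector and 3 wild-type, out of 12 libraries in the series. All plants were a hybrid of *Populus tremula* and *P. alba* labelled as clone INRA 717, multiplied in vitro, grown in a greenhouse and sampled at 3 months as fully expanded leaves from the middle of the stem. Besides the empty-vector and wild-type groups the series holds 3 knockout and 3 intermediate-phenotype libraries, which are used here only to estimate the spread and as points of comparison. The labels name neither the vector nor its promoter, and they do not say whether the 3 empty-vector libraries came from 1 transformed line or from several, or whether each library was 1 plant; differences between libraries of a genotype are taken here as the plant-to-plant variation. The p-values below therefore measure the spread between these libraries, which may be smaller or larger than that between independent transformation events.

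An empty-vector plant has passed through *Agrobacterium* infection, selection and regeneration from cultured cells, and carries the transferred DNA without the part that directs an edit. It serves as the control for what those steps do by themselves: the insertion may disturb a gene, and tissue culture can leave genetic or epigenetic changes that differ from line to line. Clonal poplars in a greenhouse also differ from plant to plant, in particular in leaf phenolics such as condensed tannins and salicinoids, whose levels respond to light, wounding and leaf position.

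RNA-seq gave one whole-number read count per transcript row, and 14279 of 16866 rows passed a filter on low counts. Total counts were 9.77, 17.3 and 8.27 M in the empty-vector libraries, against 5.45, 5.83 and 6.38 M in the wild-type libraries. Every empty-vector library was deeper than every wild-type library, so depth and genotype cannot be told apart in the raw totals. A floor of 3 counts, which covers counting error only, was worth 0.175 to 0.320 CPM (the count divided by the TMM-scaled library total in M) in empty-vector and 0.460 to 0.576 CPM in wild-type. The deposited files list transcript IDs without names, an annotation was not used here, and the leaf identity of the RNA could not be checked against markers of mesophyll.

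The libraries did not sort by genotype. Empty-vector libraries 1 and 3 were the closest pair of all, at a root mean square difference of 0.371 on the log2 CPM scale. Empty-vector library 2 lay 0.712 and 0.663 from those 2 libraries, and its nearest neighbour among the 6 was wild-type library 2, at 0.507. In wild-type, libraries 1 and 2 were 0.462 apart, whereas library 3 lay 0.662 and 0.595 from them and was nearest to empty-vector library 3, at 0.551. Thus 1 library in each genotype, empty-vector library 2 and wild-type library 3, resembled the opposite genotype more than its own. Among all 12 libraries, the nearest neighbour of each of these was an intermediate library, at 0.487 for empty-vector library 2 and 0.465 for wild-type library 3. Both were kept under their labels, and results that rest on them are also given without them. Potri.002G223900.1, described below, had 113 counts in empty-vector library 2 and 0 in wild-type library 3. It was picked by the labels and passed the filter only through the labelled empty-vector libraries, so it is no test of the labels.

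Pairs from different genotypes were 0.507 to 0.868 apart with a mean of 0.675 over 9 pairs, and pairs of the same genotype were 0.371 to 0.712 apart with a mean of 0.577 over 6 pairs. Of the 9 pairs, 4 were further apart than any pair of the same genotype, at 0.794 to 0.868, and each of these joined empty-vector library 1 or 3 to wild-type library 1 or 2. The other 5 lay within the range of the same-genotype pairs. The first principal component of the 6 libraries held 60.2% of their variance, with scores of 49.7, -18.6 and 47.6 in empty-vector, against -49.2, -39.3 and 9.81 in wild-type. It set empty-vector libraries 1 and 3 against wild-type libraries 1 and 2, with the remaining 2 libraries between them. An exact two-sided permutation test of these scores gave p = 0.2, where 3 against 3 libraries cannot go below 0.1. The second component held 13.7% of the variance, with scores of -2.17, 32.8 and 10.0 in empty-vector, against -5.46, -6.49 and -28.7 in wild-type. On it the genotypes did not overlap, and the exact permutation p was the smallest possible, 0.1. The design could not have reached 0.05 on either component.

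**Figure D1:**
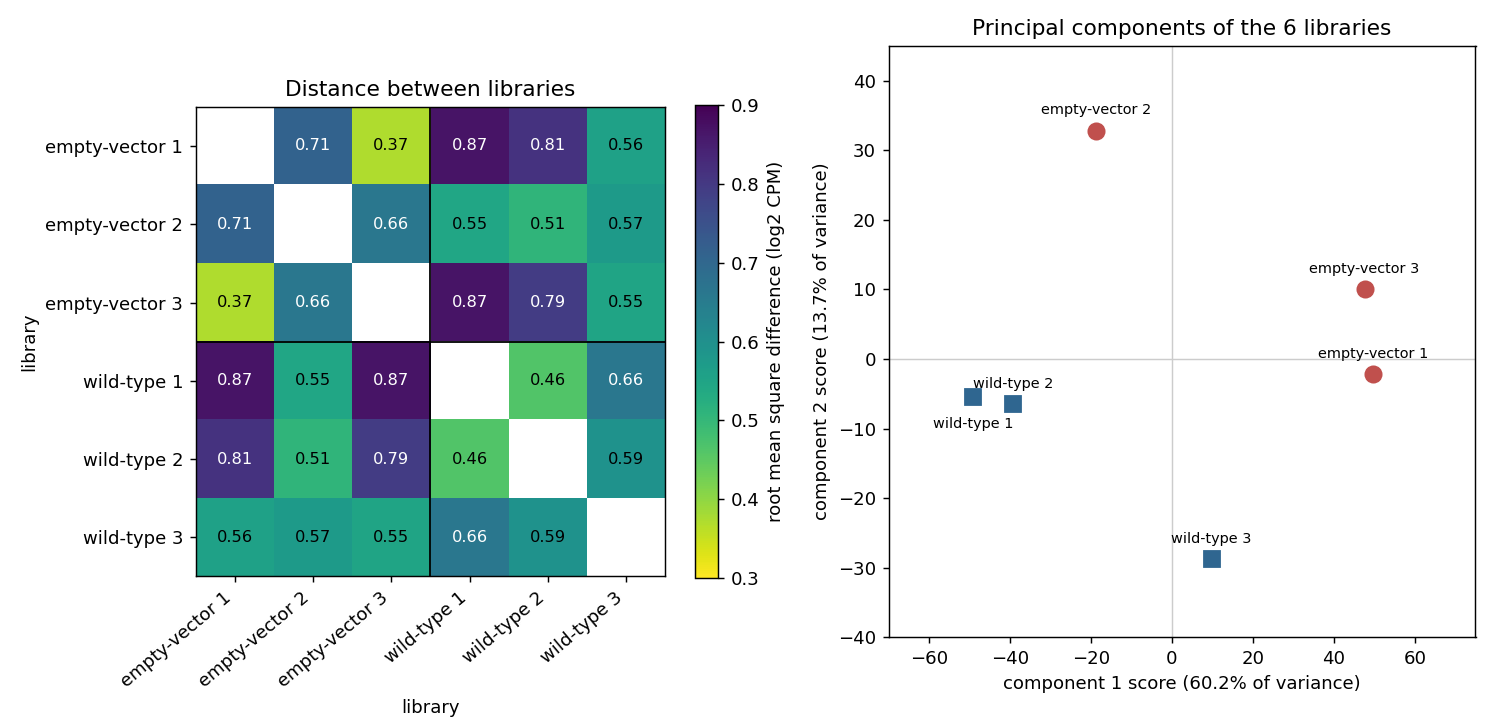
Left, root mean square difference of log2 CPM over 14279 transcripts for each pair of the 6 libraries, darker for larger. Right, scores of the 6 libraries on the first 2 principal components, circles for empty-vector and squares for wild-type. On component 1, empty-vector library 2 and wild-type library 3 lie between empty-vector libraries 1 and 3 on one side and wild-type libraries 1 and 2 on the other.

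Counting transcripts gave the same picture on a scale of fold differences. Of 9929 transcripts at 5 CPM or more on average, 17.6% differed more than 2-fold between empty-vector library 1 and wild-type library 1, and 18.5% between empty-vector library 3 and wild-type library 1. Between empty-vector library 2 and wild-type library 2 the share was only 2.54%. Within empty-vector, 11.6% of transcripts differed more than 2-fold between libraries 1 and 2, and 10.5% between libraries 2 and 3, against 0.675% between libraries 1 and 3. Within wild-type, the shares were 7.49% for libraries 1 and 3, 4.47% for libraries 2 and 3, and 0.957% for libraries 1 and 2. Some pairs of one genotype were therefore further apart than some pairs of different genotypes. The means were 9.35% for different genotypes and 5.95% for the same genotype.

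**Figure D2:**
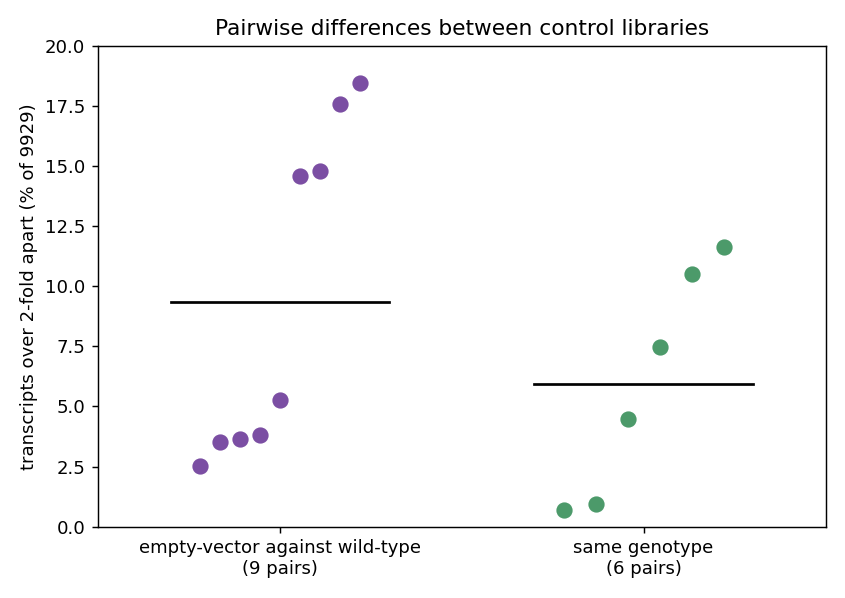
Share of 9929 transcripts that differed more than 2-fold in each pair of control libraries; each point is a pair and the lines are means. Pairs of different genotypes spanned 2.54% to 18.5% and pairs of the same genotype 0.675% to 11.6%.

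Splitting the variance of log2 CPM among the 6 libraries put 34.5% of it between the 2 genotype means, pooled over transcripts, and a median of 26.9% per transcript. With no difference at all between the genotypes, 1 of the 5 degrees of freedom would still carry 20% on average. The variance between libraries of a genotype was 0.174, an SD of 0.417 on the log2 scale, and the component assigned to genotype was 0.0645, an SD of 0.254. The plant-to-plant variance was thus 2.70 times that of genotype with all 6 libraries. The share between genotypes ran from 28.4% to 55.0% when each library was left out in turn. The share and the ratio are therefore only loosely fixed, and which variance is larger can depend on 1 library. The 20% given above holds for 6 libraries and is higher for 5. For the middle transcript, the genotype means differed by 0.28 on the log2 scale and the SD within genotypes was 0.30. The 2 genotype means were more than 2-fold apart for 687 transcripts (4.81%).

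By the SD of the middle transcript, empty-vector libraries were as spread as those of the other groups. The median SD of log2 CPM was 0.27 in each of the empty-vector, knockout, intermediate and wild-type groups. The common biological coefficient of variation, which edgeR estimates from all transcripts together, was 27.0% in empty-vector, 24.9% in knockout, 24.3% in intermediate and 21.1% in wild-type. No test was made of this order, and the median SD fell to 0.13 in empty-vector without library 2 and to 0.16 in wild-type without library 3. These 2 values come from 2 libraries each. An SD from 2 libraries tends to be lower than an SD from 3 at the same spread, so they are not directly comparable with 0.27.

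Against that spread, 6 transcripts passed an adjusted p of 0.05 between empty-vector and wild-type (0.042% of those tested), 5 higher (0.035%) and 1 lower (0.007%) in empty-vector. One of the 5 higher transcripts, Potri.002G223900.1, passed the filter on low counts only through the empty-vector libraries and so had to differ. Here and below, adjusted p-values come from quasi-likelihood tests in edgeR, Benjamini-Hochberg adjusted over 14279 transcripts. At an unadjusted p under 0.05 there were 2409 (16.9%), 1259 higher and 1150 lower. The 3 empty-vector libraries lay wholly above the 3 wild-type libraries for 1531 transcripts (10.7%) and wholly below them for 1159 (8.12%). In either direction 18.8% did not overlap, where 3 against 3 libraries with no difference would give a share of 0.1 on average. All transcripts come from the same 6 libraries and do not vary independently, so whether 18.8% is more than chance gives was not tested. By edgeR few transcripts differed by more than the spread allowed after adjustment. DESeq2 called 243 and limma-voom 6. Leaving out empty-vector library 2 raised the edgeR count to 1302, with 375 higher and 927 lower. Leaving out wild-type library 3 raised it to 17, leaving out wild-type library 2 lowered it to 1, and leaving out empty-vector library 1, empty-vector library 3 or wild-type library 1 lowered it to 0, with 1359, 1145 and 1173 at an unadjusted p under 0.05. The count thus depended on which libraries entered the fit, and most of all on empty-vector library 2.

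The same test on the same number of libraries gave other counts for the other groups, which share libraries with this comparison. It called 3902 transcripts (27.3%) between knockout and wild-type and 3557 (24.9%) between knockout and empty-vector. Between intermediate and wild-type it called 0, with 688 (4.82%) at an unadjusted p under 0.05, 13 by DESeq2 and 0 by limma-voom. Between intermediate and empty-vector it called 18 (0.126%). That count was 387 without empty-vector library 2, 0 without empty-vector library 1 (1102 at an unadjusted p under 0.05) and 1 without empty-vector library 3, and DESeq2 called 239. The median size of the log2 fold change was 0.29 for empty-vector against wild-type, 0.46 for knockout against wild-type and 0.20 for intermediate against wild-type. Setting one group of 3 libraries against all other 9, empty-vector lay wholly above them for 259 transcripts (1.81%) and wholly below for 287 (2.01%). For knockout these counts were 1742 (12.2%) and 1279 (8.96%), for intermediate 50 (0.35%) and 33 (0.231%), and for wild-type 81 (0.567%) and 210 (1.47%). By these counts the empty-vector libraries stood between the knockout group and the intermediate and wild-type groups; no test of that order was made.

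The 6 called transcripts were quite even in empty-vector, library 2 included. Their SD of log2 CPM there was 0.11 to 0.22, against a median of 0.27 over all transcripts. In wild-type it was less uniform, for example 0.42 for Potri.010G010100.1 and 0.10 for Potri.006G071500.1, against a median of 0.27. A call favours transcripts with a small spread within the groups, so the evenness in empty-vector is no separate result. Potri.010G010100.1 had 62.4, 54.8 and 64.0 CPM in empty-vector, against 18.4, 12.5 and 22.2 CPM in wild-type. The lowest empty-vector library stood more than 2-fold above the highest wild-type library. Empty-vector exceeded wild-type 3.40-fold (95% interval 2.53 to 4.58), or 1.77 ± 0.20 (SE) on the log2 scale (edgeR adjusted p = 0.0149). The knockout libraries read 26.5, 26.3 and 29.2 CPM and the intermediate libraries 20.6, 17.9 and 23.8 CPM, also well below empty-vector.

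Potri.012G027200.1 had 24.2, 18.2 and 21.5 CPM in empty-vector, against 5.57, 5.88 and 8.27 CPM in wild-type. The groups were well apart, by 3.21-fold (95% interval 2.33 to 4.43; edgeR adjusted p = 0.0282). Potri.011G054500.1 had 42.5, 32.5 and 42.2 CPM in empty-vector, against 13.4, 10.2 and 16.7 CPM in wild-type. Here empty-vector library 2 was the lowest of its group and still above every wild-type library. The difference was 2.89-fold (95% interval 2.06 to 4.07; edgeR adjusted p = 0.0459). Potri.012G007800.1 had 51.5, 47.4 and 55.5 CPM in empty-vector, against 17.5, 15.5 and 26.5 CPM in wild-type. In this transcript wild-type library 3 stood above the other 2 wild-type libraries without reaching empty-vector. EdgeR gave an adjusted p of 0.0410 for this 2.58-fold difference (95% interval 1.95 to 3.43).

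Potri.006G071500.1 was the 1 transcript called lower. It had 10.1, 11.1 and 9.29 CPM in empty-vector, against 24.2, 21.9 and 21.1 CPM in wild-type. Both groups were tight and far apart: the level was 2.19-fold lower in empty-vector (95% interval 1.71 to 2.81), or -1.13 ± 0.16 (SE) on the log2 scale (edgeR adjusted p = 0.0459). The knockout libraries read 15.6, 12.5 and 13.6 CPM and the intermediate libraries 21.3, 16.0 and 18.98 CPM, all above the empty-vector libraries.

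Potri.002G223900.1 was present or absent by group. It had 55, 113 and 64 counts in the empty-vector libraries, or 5.12, 6.58 and 6.83 CPM, and 0 counts in each of the 3 wild-type, 3 knockout and 3 intermediate libraries. Every library outside the empty-vector group was at 0. Against a floor of 3 counts over the 3 wild-type libraries, 0.173 CPM, it was at least 35.7-fold higher in empty-vector. No p is given for it, since the filter let it through only on the empty-vector libraries. Of the 5 rows listed on each side of it, 9 were tested. Their log2 fold changes ran from -1.04 to 0.32, so none of these neighbours in ID order was present or absent by group in the same way. In edgeR 0 of 9 passed an unadjusted p of 0.05, against 16.9% of all transcripts, too few rows to tell from that share.

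All 6 called transcripts had their 3 empty-vector libraries beyond all 9 other libraries of the series, the 5 higher ones above them and the lower one below. Over all transcripts, 1.81% lay wholly above the other 9 and 2.01% wholly below. The 9 include the 3 wild-type libraries used for the call, and Potri.002G223900.1 was tested only because of the empty-vector libraries. The 6 called transcripts lay on chromosomes 2, 6, 10, 11 and 12 by the numbering in their IDs, 2 of them on chromosome 12. Around Potri.012G027200.1, 5 nearby rows were tested, and their median log2 fold change was 0.91, with 3 at an unadjusted p under 0.05 and 0 called by edgeR. Around Potri.010G010100.1 the median of 6 tested neighbours was 0.14 and 0 of them had an unadjusted p under 0.05. The counts at that threshold were 3 of 9 around Potri.011G054500.1, 2 of 7 around Potri.012G007800.1 and 2 of 9 around Potri.006G071500.1. Over all transcripts the share was 16.9%, and these are few rows to set against it. Each of the 6 lost its call without empty-vector library 1, empty-vector library 3 or wild-type library 1 and when the 6 control libraries were fitted alone, and none changed direction. Their products are not named, for want of an annotation.

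**Figure D3:**
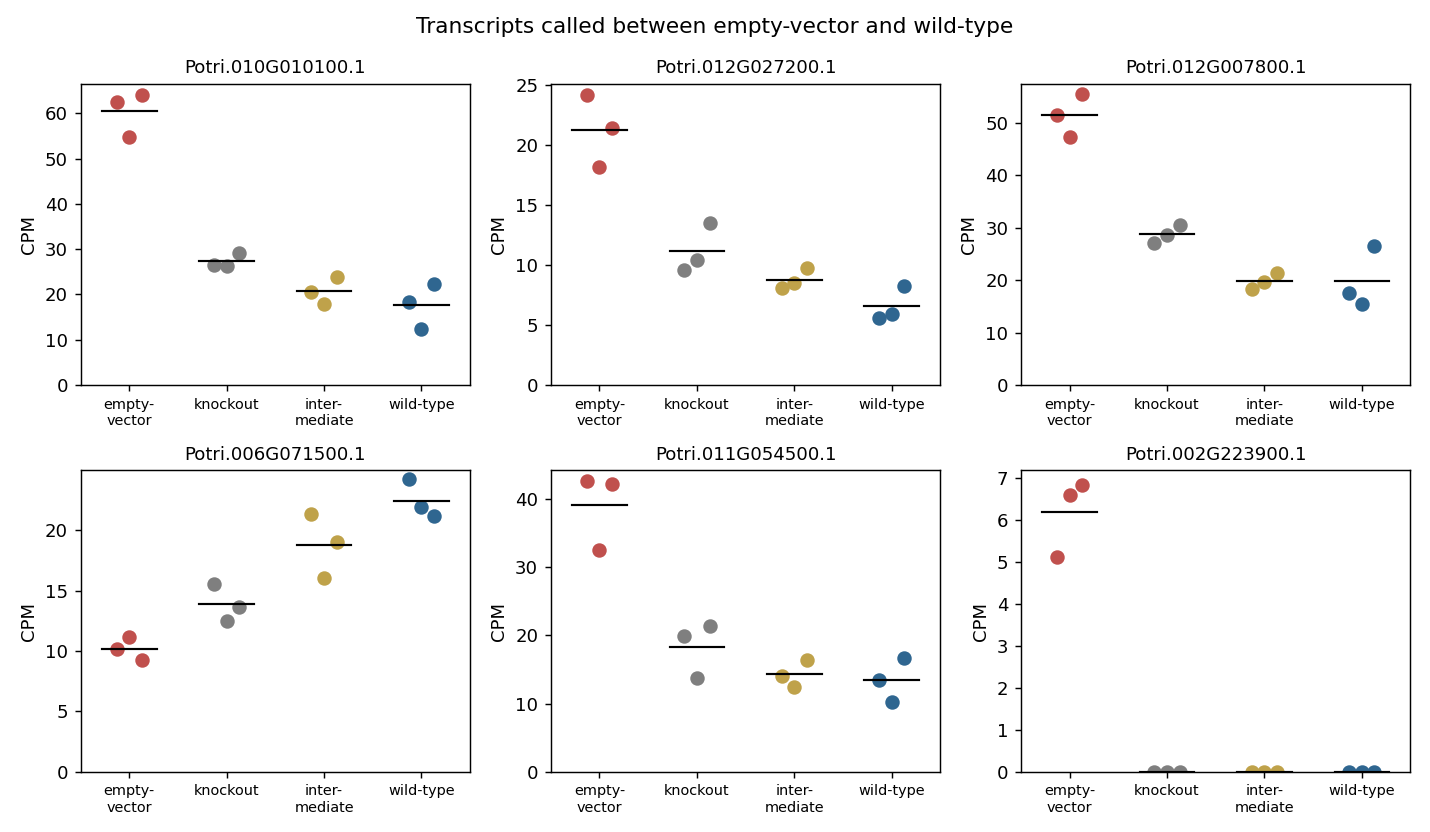
CPM of the 6 transcripts called between empty-vector and wild-type, on linear axes from 0, with 1 point per library in empty-vector, knockout, intermediate and wild-type order and lines at the group means. In each panel the 3 empty-vector points lie beyond all 9 others, and Potri.002G223900.1 has 0 counts outside empty-vector.

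A search in both directions for rows at 0 counts in every library of one genotype and at least 5 counts in every library of the other found 1 row each way. The opposite case to Potri.002G223900.1 was Potri.002G244200.1, a row outside the rule for named transcripts that was chosen after its values were seen. It had 0 counts in all 3 empty-vector libraries, against 30, 16 and 41 counts, or 5.76, 2.85 and 6.28 CPM, in wild-type. It was at least 61.7-fold lower in empty-vector against a floor of 3 counts over the group, but edgeR did not call it. No p is given for it, since it passed the filter only with the wild-type libraries and was searched for by its 0 counts. The 3 knockout libraries were at 0 as well, and the intermediate libraries read 0.367, 10.3 and 2.86 CPM, so its absence was shared with knockout and its level varied among intermediate libraries.

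Among transcripts at 5 CPM or more on average, without overlap between the genotypes and with an unadjusted p under 0.05, those with the largest fold change in each direction did not pass the adjusted test. Potri.001G113100.1 had 1368, 48.6 and 301 CPM in empty-vector, against 36.7, 14.4 and 20.7 CPM in wild-type. The empty-vector libraries spanned a wide range and library 2 was the closest to wild-type. The log2 fold change of 4.58 ± 0.99 (SE) did not pass (edgeR adjusted p = 0.162). Among the lower transcripts without overlap, Potri.009G131800.1 had 5.68, 7.28 and 2.88 CPM in empty-vector, against 18.2, 42.1 and 24.5 CPM in wild-type, 5.25-fold lower (95% interval 2.61 to 10.6; edgeR adjusted p = 0.115). Potri.004G172300.1 had 5.30, 19.6 and 2.67 CPM in empty-vector, against 30.7, 69.7 and 36.2 CPM in wild-type, 4.79-fold lower (95% interval 1.53 to 15.0; edgeR adjusted p = 0.215). In both, the highest wild-type library was library 2.

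Of the gene lists examined, that of flavonoid and condensed tannin synthesis had the widest spread between empty-vector libraries. List members are called by names that the poplar literature gives these IDs, as recalled; an annotation to check them was not used here. The flavonoid list held 20 loci, of which 11 were in the files and 9 were tested. By edgeR 0 of 9 were called, against 0.042% of all transcripts, and 8 of 9 were higher at an unadjusted p under 0.05, against 8.82% of all transcripts. DESeq2 called 4 and limma-voom 0, and edgeR without empty-vector library 2 called 8. The median log2 fold change was 2.80 over the list and 0.05 over all tested transcripts.

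Chalcone synthase (CHS) makes the first committed intermediate of flavonoids and was listed with 5 tested loci. CHS Potri.001G051600.1 had 610, 23.5 and 184 CPM in empty-vector, against 25.4, 16.0 and 27.6 CPM in wild-type. Libraries 1 and 3 of empty-vector were far above every wild-type library, and library 2 lay inside the wild-type range. On the log2 scale the difference was 3.56 ± 0.95 (SE; edgeR adjusted p = 0.179), and 4.04 without empty-vector library 2 against 2.17 without empty-vector library 1. CHS Potri.001G051500.1 had 241, 11.0 and 76.8 CPM in empty-vector, against 7.49, 5.17 and 10.6 CPM in wild-type (log2 fold change 3.81 ± 0.91, SE; edgeR adjusted p = 0.174). It was the 1 member of 9 without overlap, where 10.7% of all transcripts lay wholly above wild-type. The tandem copies Potri.003G176700.1, Potri.003G176800.1 and Potri.003G176900.1 followed the same order, with 123, 79.5 and 71.7 CPM in empty-vector library 1 but 5.36, 3.15 and 2.27 CPM in empty-vector library 2, against 1.07 to 10.3 CPM in the wild-type libraries. CHS copies are alike in sequence and can share reads under the authors' counting, so their separate levels are uncertain and they are not independent of one another.

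The next enzymes of the pathway had the same order of libraries at smaller differences. Flavanone 3-hydroxylase (F3H, Potri.005G113900.1), which forms dihydroflavonols, had 471, 96.9 and 240 CPM in empty-vector, against 104, 89.8 and 117 CPM in wild-type. Flavonoid 3'-hydroxylase (F3'H, Potri.013G073300.1), which adds a hydroxyl group to the B ring, had 191, 14.6 and 62.1 CPM in empty-vector, against 16.5, 13.9 and 23.4 CPM in wild-type. In both, empty-vector library 2 could not be set apart from wild-type. The log2 fold changes were 1.38 ± 0.46 for F3H and 2.31 ± 0.68 for F3'H (SE), with edgeR adjusted p of 0.213 and 0.192.

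MYB134 (Potri.006G221800.2), a transcription factor known in poplar to activate condensed tannin genes, had 26.0, 5.13 and 19.5 CPM in empty-vector, against 1.54, 4.46 and 8.12 CPM in wild-type. Within empty-vector the order of libraries was that of the enzymes, with library 1 highest and library 2 lowest. The difference on the log2 scale was 1.80 ± 0.59 (SE; edgeR adjusted p = 0.211). The exception in the list was flavonoid 3',5'-hydroxylase (F3'5'H1, Potri.009G069100.1), an enzyme of trihydroxylated flavonoids. It had 18.6, 33.6 and 37.9 CPM in empty-vector, against 36.1, 56.0 and 35.1 CPM in wild-type, so that empty-vector library 1 was the lowest here while it was the highest for the other 8 members.

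Across the 9 members, empty-vector library 1 was the highest of its group in 8 and library 2 the lowest of its group in 8, and libraries 1 and 3 both exceeded all wild-type libraries in 8. The median SD of log2 CPM over the list was 2.24 in empty-vector and 0.43 in wild-type, against 0.27 in each genotype over all tested transcripts. The list members were described with these libraries already known to differ, so the counts describe the libraries and are no test of the genotype. How many of all tested transcripts had this order of libraries was not counted, so the order is not shown to be particular to the list. In leaves sampled whole, fewer cells of a type and less RNA per cell cannot be told apart.

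**Figure D4:**
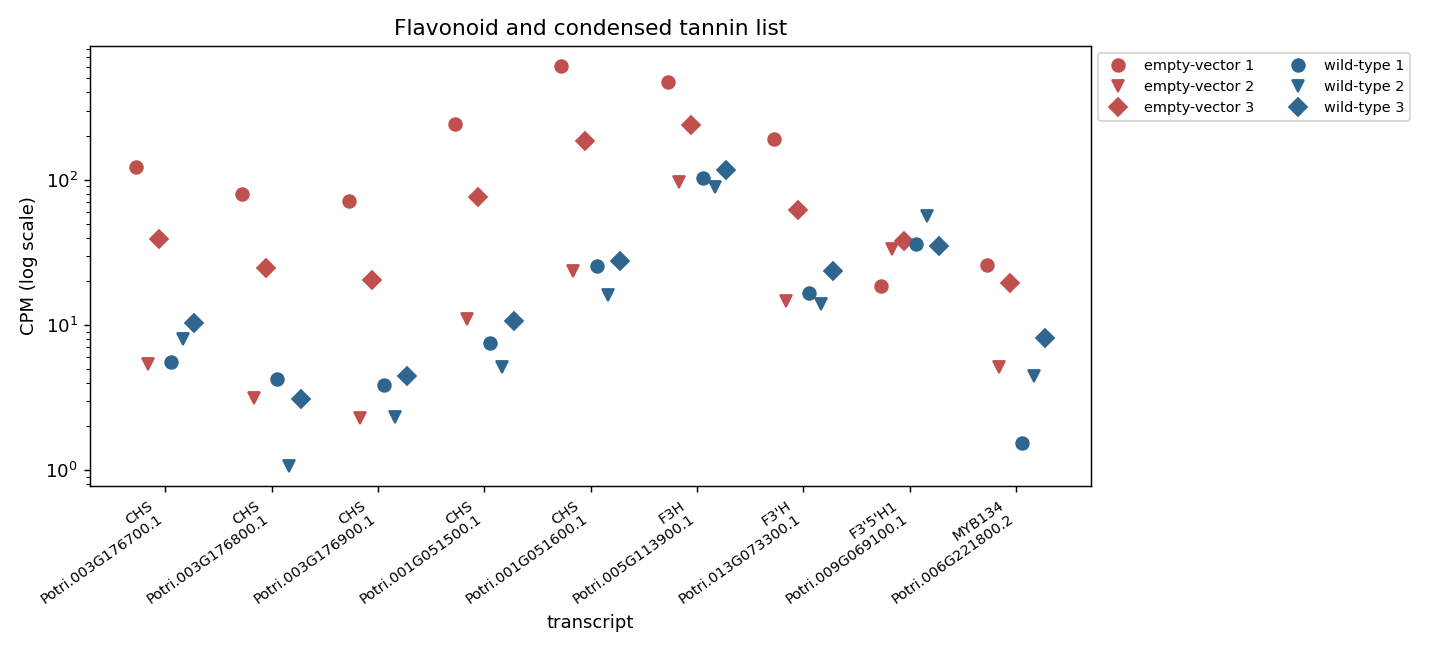
CPM on a log axis of the 9 tested members of the flavonoid and condensed tannin list in each empty-vector and wild-type library. Empty-vector libraries 1 (circles) and 3 (diamonds) lie above wild-type for all members but F3'5'H1, while empty-vector library 2 (triangles) lies among or near the wild-type libraries.

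The phenylpropanoid pathway upstream, which turns phenylalanine into lignin and flavonoid precursors, had smaller fold changes. Of 22 listed loci, 13 were in the files and tested. EdgeR called 0 of them, DESeq2 1 and limma-voom 0, and 1 had an unadjusted p under 0.05, against 0.042% called and 16.9% unadjusted over all transcripts. The median log2 fold change was 0.26. That 1 member was PAL3 (Potri.016G091100.1), a phenylalanine ammonia-lyase at the pathway's entry, with 1611, 957 and 1356 CPM in empty-vector, against 655, 437 and 535 CPM in wild-type. All empty-vector libraries exceeded all wild-type libraries. The ratio was 2.41-fold (95% interval 1.49 to 3.89; edgeR adjusted p = 0.174), and PAL3 was called without empty-vector library 2 at a log2 fold change of 1.38.

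The other entry enzymes overlapped between the genotypes. PAL1 (Potri.006G126800.1) had 2660, 2956 and 2207 CPM in empty-vector, against 2650, 1451 and 1576 CPM in wild-type (edgeR adjusted p = 0.413). The cinnamate 4-hydroxylase C4H2 (Potri.019G130700.1), which acts on the product of PAL, had 1462, 845 and 1167 CPM in empty-vector, against 912, 875 and 1097 CPM in wild-type (edgeR adjusted p = 0.563). For C4H2 the highest and the lowest of the 6 libraries were both empty-vector. The tandem genes PAL4 (Potri.010G224100.1) and PAL5 (Potri.010G224200.1) are nearly identical and may share reads, and their log2 fold changes of 0.26 and 0.24 are uncertain. Log2 fold changes of the 13 members ran from -0.07 for F5H2 (Potri.007G016400.1), a ferulate 5-hydroxylase of syringyl lignin, to 1.27 for PAL3.

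F5H2 had 123, 22.4 and 58.2 CPM in empty-vector, against 67.2, 55.4 and 90.6 CPM in wild-type, a wide range in empty-vector around a mean close to that of wild-type. CSE1 (Potri.003G059200.1), a caffeoyl shikimate esterase of monolignol synthesis, had 129, 44.0 and 85.9 CPM in empty-vector, against 63.4, 52.9 and 81.7 CPM in wild-type. Empty-vector library 1 was the highest of its group in 12 of the 13 members and library 2 the lowest of its group in 12, so the order of the empty-vector libraries seen for flavonoid genes was also that of the lignin-branch enzymes. The share of all tested transcripts with this order was not counted, so it may be common outside these lists.

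Genes of salicinoid synthesis ran in another order. UGT71L1 (Potri.016G014500.1), a glycosyltransferase of that pathway, had 36.5, 77.2 and 33.5 CPM in empty-vector, against 53.8, 38.9 and 34.6 CPM in wild-type. BEBT (Potri.019G043600.1), a benzoyltransferase, had 49.6, 112 and 55.9 CPM in empty-vector, against 71.1, 58.1 and 50.3 CPM in wild-type. SABT (Potri.013G074500.1), a second acyltransferase of the pathway, had 354, 725 and 349 CPM in empty-vector, against 662, 426 and 290 CPM in wild-type. In all 3, empty-vector library 2 was the highest of the 6, opposite to its place for flavonoid genes, and wild-type library 1 was the highest wild-type library. EdgeR, DESeq2 and limma-voom each called 0 of the 3, and 0 had an unadjusted p under 0.05 in edgeR, where 16.9% of all transcripts did and 0.042% were called. Their log2 fold changes, from 0.05 to 0.28, turned negative without empty-vector library 2, so no direction can be given.

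NPR1 (Potri.006G148100.1), which perceives salicylic acid and switches on defence genes, had 13.96, 9.67 and 12.7 CPM in empty-vector, against 7.11, 7.31 and 9.96 CPM in wild-type. Empty-vector library 2 lay just below wild-type library 3 and above the other 2 wild-type libraries. The difference on the log2 scale was 0.57 ± 0.23 (SE; edgeR adjusted p = 0.251). SUT4 (Potri.004G190400.1), a sucrose transporter of the vacuolar membrane, had 20.6, 24.2 and 22.5 CPM in empty-vector, against 32.3, 21.4 and 19.3 CPM in wild-type. The SUT4 interval of 1.45-fold lower to 1.24-fold higher in empty-vector included no difference.

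Cellulose synthases of the secondary wall mark xylem, which the mid-vein and minor veins of a leaf contain. CesA4 (Potri.002G257900.1) had 899, 480 and 663 CPM in empty-vector, against 418, 349 and 650 CPM in wild-type. CesA7B (Potri.018G103900.1) had 389, 176 and 291 CPM in empty-vector, against 181, 145 and 281 CPM in wild-type. In both genes empty-vector libraries 1 and 3 were the highest and wild-type library 3 next, and empty-vector library 2 was the lowest of its group. Summed over the 3 tested markers, the level was 1291, 658 and 956 CPM in empty-vector, against 599, 497 and 933 CPM in wild-type, and no marker was at 0 in any of these libraries. Within empty-vector the sum had the same order of libraries as the flavonoid and lignin-branch genes, and its part in those results was not tested. CesA8A (Potri.011G069600.1) was low, at 2.79, 1.92 and 2.14 CPM in empty-vector, against 0.384, 2.85 and 2.15 CPM in wild-type. Of this list of 5, 3 were tested, and edgeR, DESeq2 and limma-voom each called 0, with 0 at an unadjusted p under 0.05 in edgeR, against 0.042% called and 16.9% unadjusted over all transcripts.

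Median log2 fold changes by chromosome, as the IDs number them, lay in a narrow range. They ran from 0.01 on chromosome 13 to 0.10 on chromosome 19, around 0.05 over all tested transcripts. Within chromosomes, runs of 50 neighbouring tested transcripts in ID order had medians from -0.24 to 0.32 outside chromosome 13. The highest run lay on chromosome 1 between Potri.001G422000.2 and Potri.001G433700.1, but its place was not stable. It moved to chromosome 11 without a filter or without empty-vector library 3, to chromosome 9 without empty-vector library 2, to chromosome 19 without wild-type library 1 and to chromosome 12 with runs of 25.

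On chromosome 13 one run stood well below that range. From Potri.013G132700.1 to Potri.013G143300.1 the median log2 fold change of 50 transcripts was -1.01, and 48 of 50 were lower in empty-vector. An unadjusted p under 0.05 was reached by 29 lower ones, against 8.05% of all transcripts, and edgeR called 0. Of the 50, 8 were lower and without overlap, against 8.12% of all transcripts. Relative to the wild-type mean, the run's median was -1.22, -0.34 and -1.17 in empty-vector, against 0.25, 0.16 and -0.67 in wild-type. Empty-vector library 2 was thus higher here than wild-type library 3.

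The run also moved in the other groups, at -0.75, -1.13 and -0.91 in the knockout libraries and -0.27, -0.80 and -0.09 in the intermediate libraries. The low level was therefore neither limited to empty-vector libraries nor shared equally by all 3 of them. Leaving out each control library in turn, the lowest run stayed on chromosome 13 with a median between -1.51 and -0.76, and it was -1.25 with runs of 25 and -0.52 with runs of 100. One member, Potri.013G140100.1, chosen after its values were seen, had 41.3, 225 and 154 CPM in empty-vector, against 1043, 1496 and 67.3 CPM in wild-type. Wild-type library 3 was below 2 of the 3 empty-vector libraries. The run was selected as the lowest of 12834, so no test is given for it. Whether its members share sequence and reads was not tested.

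**Figure D5:**
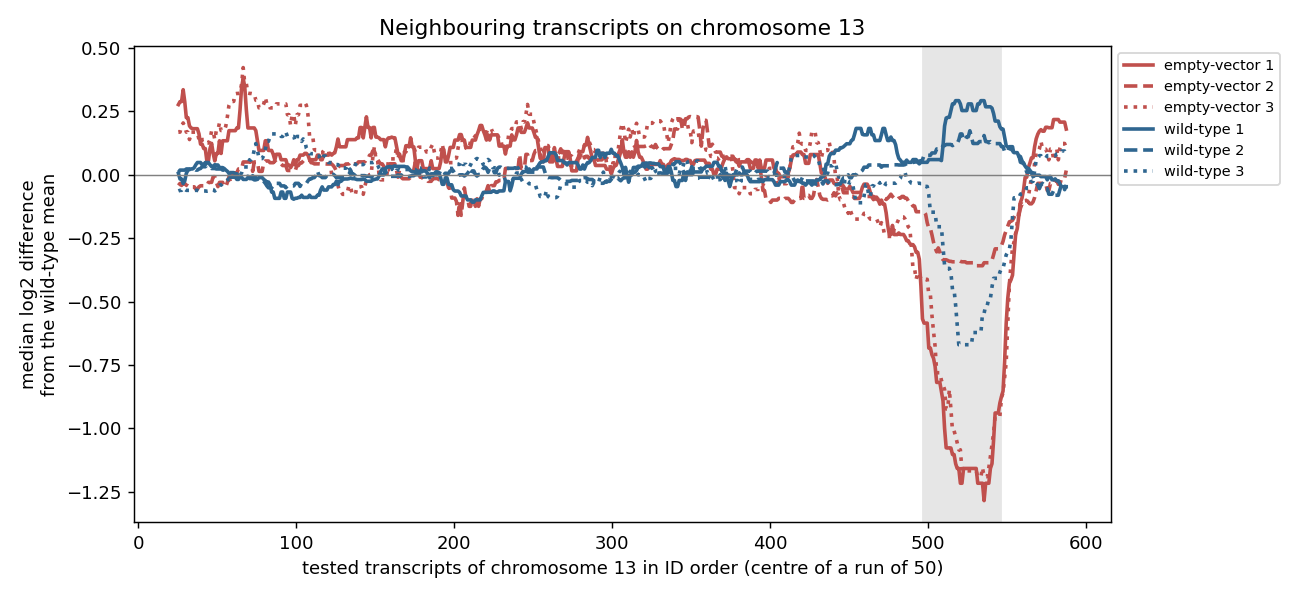
Running median over 50 neighbouring tested transcripts of chromosome 13, in ID order, of the log2 difference of each library from the wild-type mean, with red lines for empty-vector and blue lines for wild-type. The shaded run has medians of -1.22, -0.34 and -1.17 in empty-vector libraries 1, 2 and 3 and of 0.25, 0.16 and -0.67 in wild-type libraries 1, 2 and 3.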

How the data were processed

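Leaf RNA-seq was deposited as raw read counts, a table of whole numbers from the authors for each library over 16866 transcript rows of 16607 loci. HISAT2, SAMtools, Cufflinks, HTSeq and DESeq2 are listed, without roles, in the submitters' processing notes; the genome build, aligner settings and strandedness were not given. IDs come without gene names. Rows were filtered with filterByExpr in edgeR 4.0.16 (R 4.3.3; minimum count 10, total 15, proportion 0.7), leaving 14279 rows of 14140 loci with 99.8% of counts, and scaled by TMM. Means of 4 groups were fitted to all 12 libraries, without covariates, which left 8 residual degrees of freedom. Contrasts were two-sided quasi-likelihood tests (glmQLFTest) with Benjamini-Hochberg adjustment at 0.05. Fits were tested on simulated data. Distances, SDs and components were computed from log2 CPM (prior count 2). SEs are the fold change over the root of F, and intervals are 95%. The lowest chi-square per degree of freedom between 2 control libraries was 8.48, well beyond counting noise, so none was treated as a duplicate.

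Transcripts named were all those called (by rule the first 2 in each direction; the rest were added after their values were seen), the first 2 higher and 2 lower by fold change among those with an unadjusted p under 0.05, no overlap and at least 5 CPM on average, members of the lists, and the extreme runs. The members and lists were chosen with earlier results of these data known. Listed loci numbered 20 (flavonoid), 22 (phenylpropanoid), 3 (salicinoid), 1 (salicylic acid), 5 (xylem wall) and 1 (sucrose transport); lists defined by description terms were not used here. Alternatives were RLE and upper-quartile scaling, other filters, prior counts, run lengths, thinning to the shallowest library, the 6 control libraries alone, DESeq2 1.42.0, limma-voom 3.58.1 and leaving out each library.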

Additional observations from a re-analysis of the deposited data

How the results depend on the processing

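The count of 6 transcripts called between empty-vector and wild-type was 4 with RLE scaling, 6 without a filter, 5 with a stricter filter and 6 by limma-voom. It was 3 with upper-quartile scaling, 3 after thinning all libraries to the shallowest, 0 when the 6 control libraries were fitted alone (edgeR; 2040 at an unadjusted p under 0.05), 243 by DESeq2 (122 higher, 121 lower), and 0 to 1302 with 1 library left out. All 6 kept their direction in every alternative in which they were tested. Potri.010G010100.1 passed in 9 of 13, and Potri.012G007800.1 and Potri.012G027200.1 each in 8 of 13. The counts were 7 of 13 for Potri.006G071500.1 and 6 of 13 for Potri.011G054500.1. Potri.002G223900.1, which had to differ, passed in 4 of 12 and was not tested with the stricter filter. Members called ranged from 0 to 8 in the flavonoid list and from 0 to 1 in the phenylpropanoid list with 1 library left out, and were 4 and 1 by DESeq2. With 1 library left out, the median SD ranged from 0.13 to 0.28 in empty-vector and from 0.16 to 0.27 in wild-type; over the other alternatives it was at most 0.29 in each. The highest run median was 0.56 with 25 neighbours, and the lowest -0.52 with 100. No paired analysis was possible because the labels give the groups no shared replicate numbers.

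With 1 library left out, 7 named list members, none of them called, changed sign, and the cause was not tested. Their log2 fold changes ranged from -0.026 (without empty-vector library 1) to 0.64 for CSE1 (Potri.003G059200.1), from -0.83 to 0.29 (without empty-vector library 2; 0.03 without library 3 and 0.14 without wild-type library 3) for F5H2 (Potri.007G016400.1), from -0.25 to 0.50 for BEBT (Potri.019G043600.1) and from -0.35 to 0.43 for UGT71L1 (Potri.016G014500.1), both lowest without empty-vector library 2. The ranges were -0.46 (without empty-vector library 2; -0.19 without wild-type library 3) to 0.41 for SABT (Potri.013G074500.1), -0.26 to 0.14 (without wild-type library 1) for SUT4 (Potri.004G190400.1) and -0.13 (without wild-type library 1) to 0.77 for CesA8A (Potri.011G069600.1). Depth limits absence: 0 counts allow up to 0.173 CPM over the wild-type group. Since the number of transformed lines is not given, effects of transformation in general and of 1 line cannot be told apart.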
